A study of Mus musculus with 8 samples.

Results

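Rps19bp1, the gene removed in the knockout, and the 7 sirtuin genes Sirt1 to Sirt7 were followed in ventricular heart tissue of mouse embryos at embryonic day 11.5. The 8 genes were taken by symbol from the 52778 rows of a table of transcript levels, with rows on primary chromosomes only, and each symbol stood on 1 such row. The knockout group (cKO) comprised 4 libraries from Rps19bp1 fl/fl; Xmlc2-Cre +/- embryos, in which the submitters describe deletion as specific to cardiomyocytes, and the other 4 libraries came from control embryos. The genotype field gives C57BL/6 WT for all 8 libraries, and whether the controls carried floxed alleles or Cre is not given in the sources used here. The submitters describe 4 biological replicates per genotype and name 1 batch for all libraries. Whether a library pools embryos is not given in the sources used here.

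Sirtuins are enzymes that consume NAD to remove acetyl and other acyl groups from lysines, and so tie protein modification to the energy state of the cell. Sirt1 and Sirt6 are mainly nuclear, Sirt7 is enriched in the nucleolus, Sirt2 is mainly cytosolic, and Sirt3, Sirt4 and Sirt5 are mitochondrial. Rps19bp1, also known as AROS (active regulator of SIRT1), is a small protein of the nucleolus. It binds ribosomal protein S19, and it has been described as a direct activator of Sirt1 in the deacetylation of p53. RNA levels do not measure that activity.

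The promoters of Rps19bp1 and Sirt1 are shown because these were the 2 of 8 members whose levels did not overlap between groups, as was also seen in 15.6% of the 15541 genes tested. Each run holds the 250 bases before the annotated start in RefSeq on build GRCm38.p6, read 5′ to 3′ on the minus strand, where both genes lie. The Rps19bp1 window is chr15:80264307-80264556 and the Sirt1 window is chr10:63339036-63339285. Capitals mark matches on either strand to the ETS core CGGAAG, the GC box GGGCGG, the E-box CACGTG and CCAAT, and neighbouring matches can overlap and then form 1 run of capitals.
Rps19bp1: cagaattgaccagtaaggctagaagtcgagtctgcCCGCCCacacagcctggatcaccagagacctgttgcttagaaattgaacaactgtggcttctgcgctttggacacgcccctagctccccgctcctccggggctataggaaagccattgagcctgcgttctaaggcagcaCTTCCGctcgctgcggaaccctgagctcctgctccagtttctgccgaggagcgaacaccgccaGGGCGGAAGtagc
Sirt1: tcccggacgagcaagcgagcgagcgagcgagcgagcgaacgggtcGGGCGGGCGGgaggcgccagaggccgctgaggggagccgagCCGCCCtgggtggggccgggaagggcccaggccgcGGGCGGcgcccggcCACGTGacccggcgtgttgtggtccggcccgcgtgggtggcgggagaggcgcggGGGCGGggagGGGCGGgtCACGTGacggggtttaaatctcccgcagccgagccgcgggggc
The Rps19bp1 window held 2 ETS cores, at 76 and 10 bases before the start, and 2 GC boxes, of which the nearer one overlaps an ETS core, and 14 CpG dinucleotides at a GC content of 58.8%. The Sirt1 window held 6 GC boxes and 2 E-boxes, at 115 and 43 bases before the start, and 39 CpG dinucleotides at a GC content of 79.2%. Among 32851 promoter windows of the same length, 13.6% held the ETS core, 32.7% the GC box, 6.02% the E-box and 33.8% CCAAT, and the median window had 6 CpG dinucleotides and a GC content of 52.4%. The E-box was in none of the windows listed for Rps19bp1 and Sirt2 to Sirt7. These matches describe the letters only, and binding was not measured.

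The tissue was checked against marker genes because the extraction text of the labels speaks of cortical neurons and ribosomal RNA depletion, while the series text speaks of ventricles and an mRNA kit. The cardiac actin gene Actc1 stood at 13929 to 16328 TPM (a level divided by transcript length and scaled to the same total in every library). Of 10 neuronal markers, 8 had a mean level under 1 TPM, among them Slc17a6 at 0 in all 8 libraries, while Camk2a stood at 103 to 125 TPM. The remaining one, Nefl, fell from 3.93 ± 0.479 TPM in control to 2.49 ± 0.226 TPM in cKO (SD, n = 4, change -0.50, limma adjusted p = 0.0219). Between 15336 and 15752 rows per library reached 1 TPM, and the number of reads behind each value is unknown. Mitochondrially encoded transcripts took 13.2% to 16.2% of TPM in cKO and 11.4% to 12.2% in control, and because TPM has a fixed total, a larger share leaves less for all other genes.

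Rps19bp1 transcripts were reduced but present in every cKO library. The level was 15.2, 11.8, 13.7 and 19.2 TPM in cKO replicates 1 to 4. It was 40.9, 44.2, 34.7 and 40.05 TPM in control replicates 1 to 4. Every cKO library lay below every control library, cKO replicate 4 kept the most and cKO replicate 2 the least. The group means were 14.96 ± 3.14 TPM in cKO and 39.9 ± 3.93 TPM in control (SD, n = 4), so 37.5% of the control level remained. The spread relative to the mean was wider in cKO, with a coefficient of variation of 21.0% against 9.83%.

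The fitted change of Rps19bp1 was -1.37 on the log2(TPM + 1) scale (95% interval -1.66 to -1.09, limma adjusted p = 0.000508). Rps19bp1 (chr15:80260614-80264306, GRCm38) has a single coding transcript in GENCODE M21, of 4 exons and 838 bases. Which exons were floxed is not given in the sources used here, and the table holds 1 value per gene, so a transcript without the floxed part and an intact one cannot be told apart. The level therefore checks the group labels only as far as the deleted part enters the value. Fewer cells of a type and less RNA per cell cannot be told apart in these bulk samples either.

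**Figure D1:**
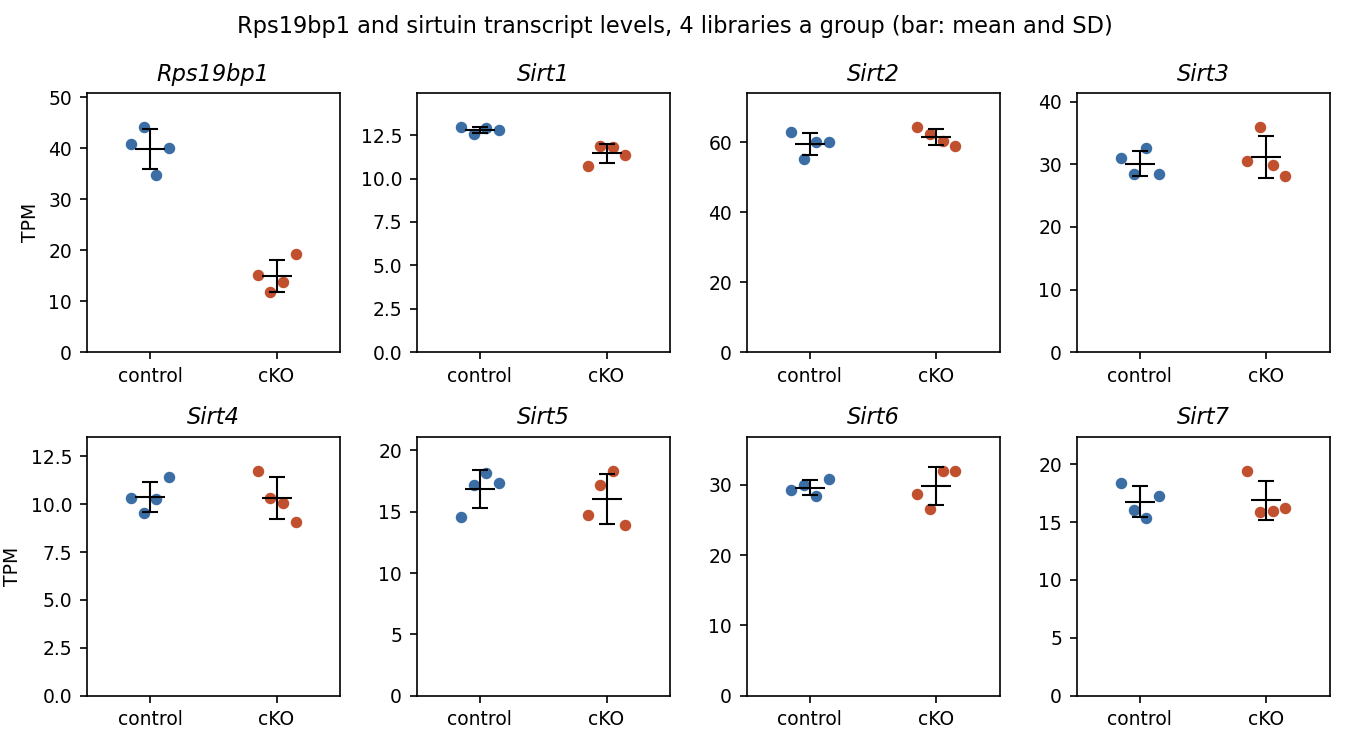
Levels of Rps19bp1 and Sirt1 to Sirt7 in TPM (vertical axes, each from 0) in control (blue) and cKO (red) libraries, with 1 point per library and bars for the mean and SD of 4. Rps19bp1 sits at 11.8 to 19.2 TPM in cKO and at 34.7 to 44.2 TPM in control, Sirt1 is slightly lower in all 4 cKO libraries, and the other sirtuins overlap.

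Cell type markers were read beside this level. The summed level of 18 cardiomyocyte markers was 59415 to 62620 TPM in cKO and 59812 to 64971 TPM in control, so the groups overlapped. The sum is weighted by the most abundant markers. Taken singly, 14 markers lay below 0 and 4 above, with a median change of -0.05, where 8678 of all 15541 tested genes lay below 0. Among those above was Nppa, with a change of 0.44 that did not pass (limma adjusted p = 0.0768). Of these 18, 1 was called lower and the other 17 did not pass, where 4.23% of all tested genes were called lower. The 1 was Nkx2-5, a cardiac transcription factor, with a change of -0.48 on the log2 scale (limma adjusted p = 0.0453). Its call was not followed over the alternative settings. The summed level of 11 endocardial and endothelial markers overlapped as well, at 1097 to 1244 TPM in cKO and 1070 to 1134 TPM in control. Taken singly, 9 of these 11 lay above 0 and 2 below, with a median change of 0.11, where 6863 of all 15541 tested genes lay above 0. In limma 0 of the 11 passed, and 5 had an unadjusted p under 0.05 (23.7% over all tested genes). The 8 epicardial markers summed to 440.6 to 543 TPM in cKO and to 375 to 438 TPM in control, and the 9 mesenchymal markers to 871 to 1060 TPM in cKO and 585 to 762 TPM in control. Both of these lists were higher in every cKO library, and 4 of 8 epicardial and 4 of 9 mesenchymal markers rose past an adjusted p of 0.05 in the limma fit, as did 2.16% of all tested genes. Upk3b, the most abundant epicardial marker, stood at 116 to 177 TPM and Col3a1, the most abundant mesenchymal marker, at 205 to 312 TPM over the 8 libraries. The cKO library with the most Rps19bp1, replicate 4, had the lowest epicardial sum of the cKO libraries (440.6 TPM). The one with the least, replicate 2, had the lowest mesenchymal sum (871 TPM). Replicate 4 also had the lowest cardiomyocyte sum of the cKO libraries (59415 TPM), and replicate 2 had the highest (62620 TPM). The 7 erythroid markers summed to 1750 to 3750 TPM in cKO and 1966 to 7140 TPM in control, and the 7 macrophage markers to 10.7 to 29.3 TPM and 10.4 to 18.8 TPM. Plvap (191 to 237 TPM), Hbb-y (709 to 2857 TPM) and C1qb (3.03 to 9.13 TPM) were the most abundant markers of the endothelial, erythroid and macrophage lists. The part of these cell types in the remaining Rps19bp1 level was not tested.

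**Figure D2:**
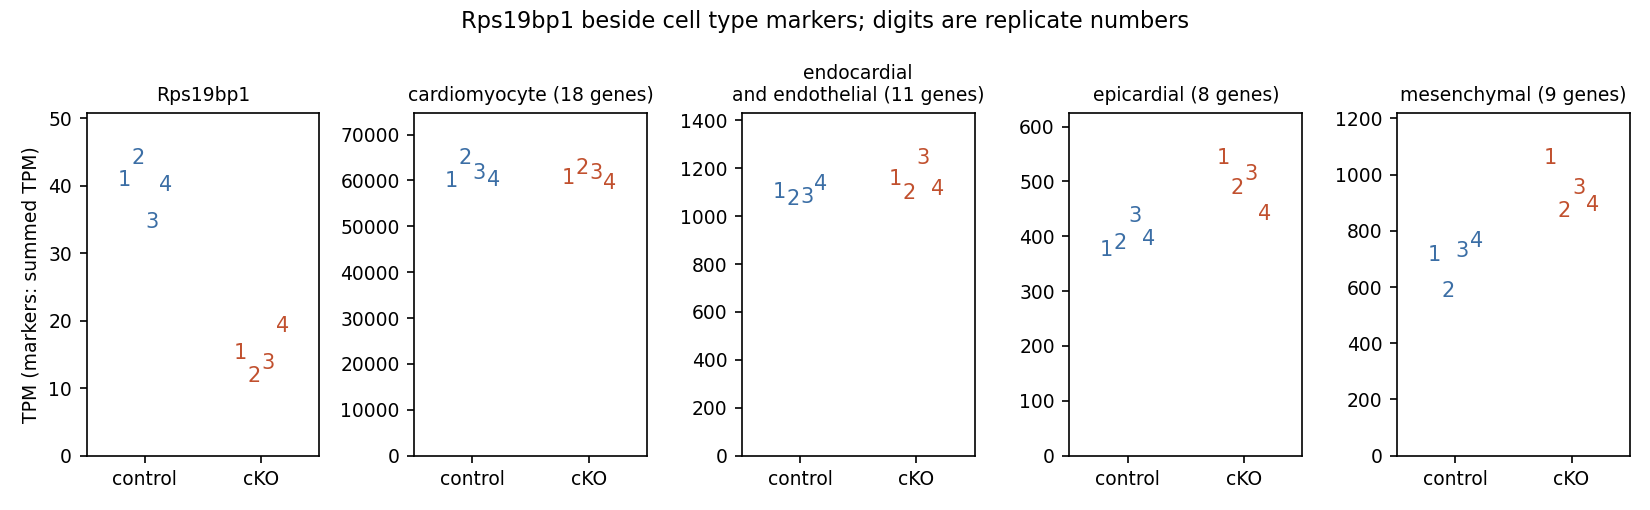
Rps19bp1 level and summed levels of 4 marker lists, all in TPM (vertical axes from 0), with each library drawn as its replicate number in control (blue) and cKO (red). Rps19bp1 falls in cKO while the cardiomyocyte sum stays between 59415 and 64971 TPM, and the epicardial and mesenchymal sums are higher in every cKO library.

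The genes beside Rps19bp1 were then read to see whether the difference ended at its borders. Atf4, the transcription factor of the integrated stress response, ends 3069 bp from Rps19bp1 on the plus strand. Its level was 137, 129.97, 129 and 134 TPM in cKO replicates 1 to 4 and 161, 132, 159.7 and 150.8 TPM in control replicates 1 to 4. The groups overlapped through control replicate 2, which cKO replicates 1 and 4 exceeded, while the other 3 controls lay above every cKO library. Its change of -0.18 on the log2 scale (95% interval -0.32 to -0.04) did not pass the threshold (limma adjusted p = 0.118). The same held under 16 of 17 alternative settings. Only without control replicate 2 did the change, then -0.24, pass (limma adjusted p = 0.0372, range over 17 alternative settings 0.0372 to 0.259). Mief1, a mitochondrial fission factor 7242 bp away, had a change of -0.05 (95% interval -0.18 to 0.07, limma adjusted p = 0.632). On the far side of Rps19bp1 the first tested gene was Grap2, at 308291 bp, which lay between 1.05 and 2.10 TPM with a change of -0.19 (limma adjusted p = 0.470), and its symbol stands on 2 rows of the table.

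Rps19, which encodes the ribosomal protein that Rps19bp1 binds, was not past the threshold. Its level was 1206, 987, 1035 and 921 TPM in cKO replicates 1 to 4 and 928, 825, 910.1 and 933 TPM in control replicates 1 to 4. Only cKO replicate 4 overlapped the controls, and the change was 0.20 (95% interval 0.02 to 0.38, limma adjusted p = 0.176). Rps19bp1 was a minor transcript beside its partner in both groups, at 0.0119 to 0.0208 TPM per TPM of Rps19 in cKO and 0.0381 to 0.0535 in control. Reads of Rps19 can be shared with processed pseudogenes.

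Of the 7 sirtuin genes, all passed the filter on low values (a mean of at least 1 TPM) and 0 passed an adjusted p of 0.05 in limma's test, against 6.4% of the 15541 tested genes. With an unadjusted p under 0.05 there was 1 sirtuin, Sirt1, where 23.7% of all tested genes had one. The median change of the 7 was 0.01 on the log2 scale, beside -0.02 over all tested genes.

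Sirt1, the nuclear sirtuin for which Rps19bp1 is named as an activator, was the member with the clearest separation after Rps19bp1 itself. Its level was 10.7, 11.9, 11.8 and 11.3 TPM in cKO replicates 1 to 4. In control replicates 1 to 4 it was 12.96, 12.6, 12.9 and 12.8 TPM. All 4 cKO libraries lay below all 4 controls, by a narrow margin between 11.9 and 12.6 TPM. The means were 11.5 ± 0.533 TPM in cKO and 12.8 ± 0.178 TPM in control (SD, n = 4), so cKO held 89.3% of the control level. The exact two-sided permutation p was 0.0286, the smallest that 8 libraries in groups of 4 allow. Such a separation with cKO lower was seen in 10.3% of all tested genes. The fitted change of Sirt1 was -0.15 (95% interval -0.28 to -0.03, SE 0.0558), and with the correction over all genes it did not pass (limma adjusted p = 0.137). It stood at rank 2445 of 15541 by p.

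Sirt2, the cytosolic member known as a tubulin deacetylase, was the most abundant sirtuin and was level between groups. It stood at 64.2, 62.2, 60.25 and 58.95 TPM in cKO replicates 1 to 4 and at 62.8, 55.3, 60.1 and 60.1 TPM in control replicates 1 to 4. The groups overlapped, and the change was 0.04 (95% interval -0.07 to 0.16, limma adjusted p = 0.650). On the scale of TPM + 1 the interval runs from -4.74% to 11.7%.

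The 3 mitochondrial members were read next. Sirt3, the main mitochondrial deacetylase, stood at 30.6, 35.9, 29.8 and 28.1 TPM in cKO replicates 1 to 4 and at 30.97, 28.4, 32.6 and 28.4 TPM in control replicates 1 to 4. The groups overlapped and cKO replicate 2 held the highest value, with a change of 0.04 (95% interval -0.13 to 0.22). Sirt4, which acts on glutamate dehydrogenase and lipoylated enzymes, stood at 11.8, 10.3, 10.1 and 9.07 TPM in cKO and at 10.3, 9.52, 10.3 and 11.4 TPM in control. Its change was -0.01 (95% interval -0.20 to 0.18), and both extremes of the 8 values came from cKO libraries. Sirt5, which removes succinyl, malonyl and glutaryl groups, stood at 14.7, 17.2, 18.3 and 13.9 TPM in cKO and at 14.6, 17.2, 18.2 and 17.4 TPM in control. Its change was -0.07 (95% interval -0.28 to 0.14), the widest interval of the 7 sirtuins. The limma adjusted p of Sirt3, Sirt4 and Sirt5 lay at 0.785, 0.950 and 0.710.

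Sirt6, a chromatin-bound deacetylase of histone H3, stood at 28.7, 26.6, 31.99 and 31.97 TPM in cKO replicates 1 to 4 and at 29.3, 29.97, 28.4 and 30.8 TPM in control replicates 1 to 4. The control values lay inside the range of the cKO values, and the change was 0.01 (95% interval -0.14 to 0.15, limma adjusted p = 0.970). Sirt7, the nucleolar member associated with RNA polymerase I, stood at 19.4, 15.9, 15.9 and 16.2 TPM in cKO and at 18.4, 16.02, 15.4 and 17.3 TPM in control. Here cKO replicate 1 stood above the other 7 libraries, and the change was 0.01 (95% interval -0.17 to 0.19, limma adjusted p = 0.963). Over Sirt2 to Sirt7 the 95% intervals reached down to -0.28 (Sirt5) and up to 0.22 (Sirt3) on the log2 scale. For each gene, changes inside its own interval were not resolved with 4 libraries a group.

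**Figure D3:**
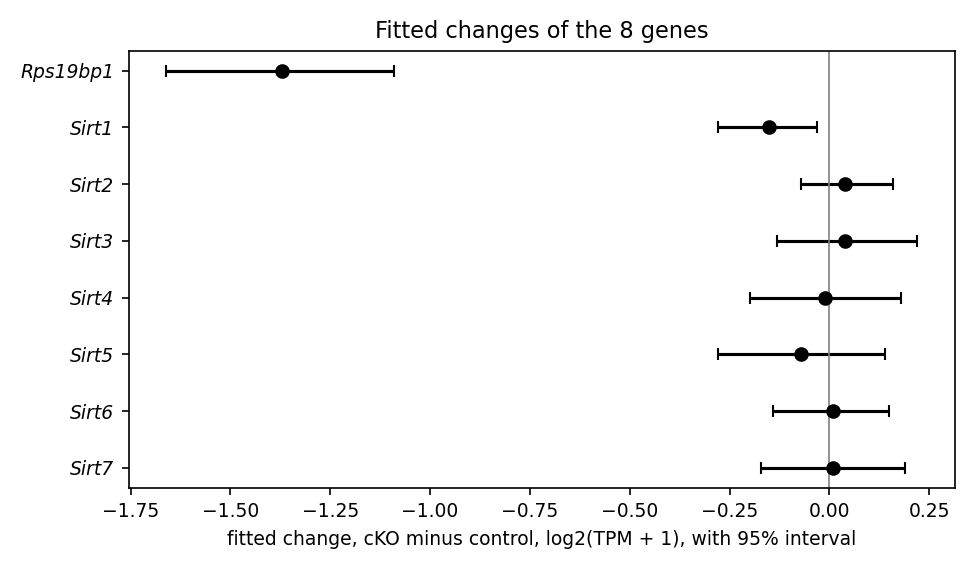
Fitted change of each gene, cKO minus control, on the log2(TPM + 1) scale (horizontal axis), with points for the estimate and bars for the 95% interval from limma. Rps19bp1 lies at -1.37, the interval of Sirt1 ends at -0.03, and those of Sirt2 to Sirt7 include 0.

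Some members overlap other rows of the table, and use of strand in counting is not given in the sources used here. The end of Sirt3 overlaps Ric8a (23.7 to 28.8 TPM) by 69 bp on the opposite strand, and Sirt2 and Sirt4 overlap predicted genes on the opposite strand with mean levels of at most 0.601 TPM. Sirt7 holds the microRNA row Mir6936 (2.19 to 5.31 TPM) on its own strand. Rps19bp1, Sirt1, Sirt5 and Sirt6 overlap no other row.

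Because TPM is divided by length, levels could be ordered between genes. In control the order of mean TPM was Sirt2 (59.5 ± 3.13), Rps19bp1 (39.9 ± 3.93), Sirt3 (30.1 ± 2.05), Sirt6 (29.6 ± 1.04), Sirt5 (16.8 ± 1.56), Sirt7 (16.8 ± 1.32), Sirt1 (12.8 ± 0.178) and Sirt4 (10.4 ± 0.787; SD, n = 4). Sirt3 and Sirt6 did not differ beyond their spread, since Sirt3 was the higher in 4 of 8 libraries, and neither did Sirt5 and Sirt7, with Sirt7 the higher in 3 of 8. Sirt5 exceeded Sirt1 in 8 of 8 libraries, and Sirt1 exceeded Sirt4 in 7 of 8, the exception being cKO replicate 1. Rps19bp1 stood above Sirt6 in all 4 control libraries and below it in all 4 cKO libraries. In cKO Rps19bp1 exceeded Sirt7 in 1 of 4 libraries, replicate 4.

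The summed level of Sirt1 to Sirt7 was 180.1, 180.05, 178.3 and 169.6 TPM in cKO replicates 1 to 4 and 179.2, 168.96, 177.8 and 178.2 TPM in control replicates 1 to 4. Sirt2 alone took 34.7% ± 0.765 of the sum in cKO and 33.8% ± 0.953 in control, and Sirt3 and Sirt6 took 17.6% ± 1.60 and 16.9% ± 1.87 in cKO (SD, n = 4). Sirt1 took 5.96% to 6.69% of the sum in cKO and 7.20% to 7.44% in control, without overlap. The sum overlapped between groups. The ratio of Rps19bp1 to Sirt1 in TPM was 3.12 ± 0.341 in control and 1.31 ± 0.307 in cKO (SD, n = 4), and in cKO replicate 2 it was 0.988.

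**Figure D4:**
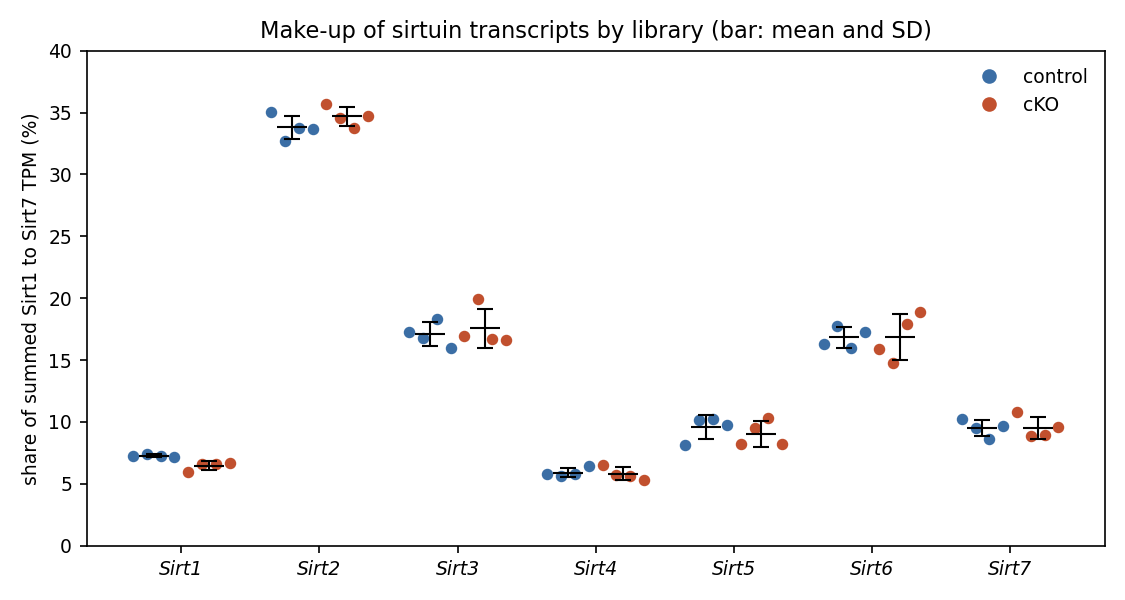
Share of each sirtuin in the summed TPM of Sirt1 to Sirt7 (vertical axis, percent) in control (blue) and cKO (red), with 1 point per library and bars for the mean and SD of 4. Sirt2 takes 34.7% in cKO and 33.8% in control, and the share of Sirt1 is lower in all 4 cKO libraries.

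The genes whose level followed Rps19bp1 and Sirt1 most closely over the 8 libraries were named by Pearson correlation of log2(TPM + 1), as a description. For Rps19bp1 these were Fbxl14 (r = 0.985), Arpc5l (r = 0.979) and Timm44 (r = 0.978), which encode an F-box protein, an Arp2/3 subunit and a part of the mitochondrial import motor. For Sirt1 they were Afg3l2 (r = 0.978), Clcn5 (r = 0.977) and Gga2 (r = 0.976), which encode a mitochondrial protease, a chloride transporter and a Golgi adaptor. The groups did not overlap for any of the 6, so the correlations include the difference between cKO and control. Because this choice favours genes that differ between the groups, the limma results of these 6 are not given as findings.

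Sirtuins depend on NAD, and genes of its synthesis, conversion and transport were examined as a list of 21, of which 15 passed the filter. The 1 of 15 that passed the threshold, near the 6.4% of all tested genes, was Nadk2, which fell. It encodes the mitochondrial kinase that turns NAD into NADP and does not make NAD. Its level was 49.8, 55.8, 48.3 and 55.4 TPM in cKO replicates 1 to 4 and 68.6, 71.2, 61.97 and 61.7 TPM in control replicates 1 to 4, without overlap (change -0.33, limma adjusted p = 0.0237). The symbol stands on 2 rows, 1 of them outside the primary chromosomes, and the call was lost under 5 of 17 alternative settings. Nampt, the rate-limiting enzyme of the NAD salvage pathway, stood at 16.95, 18.9, 14.5 and 16.6 TPM in cKO and at 20.7, 19.3, 20.3 and 20.6 TPM in control. Its groups did not overlap, and its change of -0.27 did not pass (95% interval -0.43 to -0.10, limma adjusted p = 0.0637). This held under 16 of 17 settings. Only without cKO replicate 2 did the change, then -0.32, pass (limma adjusted p = 0.0359, range over 17 settings 0.0359 to 0.148). The median change of the 15 tested genes was -0.07.

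Among 18 other NAD consumers 15 passed the filter. Parp12, a mono-ADP-ribosyltransferase, was the 1 of 15 past the threshold (6.4% over all tested genes), falling from 9.99 ± 0.833 to 7.86 ± 0.621 TPM (SD, n = 4, change -0.31, limma adjusted p = 0.0461), a call lost under 14 of 17 settings. Parp1, the main poly-ADP-ribose polymerase and a competitor for nuclear NAD, stood at 109.6, 117, 101 and 115 TPM in cKO and at 127, 126, 130.0 and 123 TPM in control. Its groups did not overlap, and its change of -0.19 did not pass (95% interval -0.31 to -0.07, limma adjusted p = 0.0613). Of the 11 zinc-dependent histone deacetylases, the other deacetylase family, all were tested and 0 passed in limma, with 3 at an unadjusted p under 0.05, where 23.7% of all tested genes had one. Without cKO replicate 2 there was 1 call. The median was -0.07, or -0.02 after quantile normalization and -0.04 under both median-ratio scaling and rescaling without mitochondrial and globin genes.

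Known regulators of Sirt1 were a list of 18, all of them tested. Ctbp2, a corepressor that acts with Hic1 on the Sirt1 gene, was the 1 of 18 past the threshold (6.4% over all tested genes), falling from 59.95 ± 2.14 to 51.4 ± 2.99 TPM (SD, n = 4, change -0.22, limma adjusted p = 0.0386), a call lost under 12 of 17 settings. Ccar2, the protein inhibitor of Sirt1 also known as DBC1, stood at 37.7 ± 3.09 TPM in cKO and 39.5 ± 2.03 TPM in control (SD, n = 4), with a change of -0.07 (95% interval -0.22 to 0.08, limma adjusted p = 0.584). Hic1, a repressor of Sirt1 transcription, spread widely within groups, from 13.8 to 19.4 TPM in cKO and from 12.0 to 22.3 TPM in control, and its interval of -0.33 to 0.44 was too wide to place it. Hic1 overlaps Smg6 on the opposite strand.

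Substrates of Sirt1 were a list of 42, of which 40 were tested. E2f1, the cell cycle transcription factor, was the 1 of 40 past the threshold (6.4% over all tested genes). It stood at 23.9, 24.4, 27.05 and 33.3 TPM in cKO replicates 1 to 4 and at 43.7, 41.95, 43.8 and 38.8 TPM in control replicates 1 to 4. Every cKO library was lower, with replicate 4 nearest to the controls, and the change was -0.62 (SE 0.0957, limma adjusted p = 0.00772). Trp53, which encodes p53, the substrate in the assays that named Rps19bp1 an activator, stood at 92.97, 95.99, 99.4 and 97.2 TPM in cKO and at 85.04, 79.2, 84.1 and 96.8 TPM in control. Its change of 0.16 did not pass (95% interval 0.03 to 0.30, limma adjusted p = 0.145) and stayed uncalled under 16 of 17 settings. Only without control replicate 4 did the change, then 0.22, pass (limma adjusted p = 0.0491, range over 17 settings 0.0491 to 0.294).

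The FOXO factors and PGC-1alpha carry much of the known Sirt1 response in stress and mitochondrial biogenesis. Foxo3 stood at 19.7, 21.98, 19.3 and 19.4 TPM in cKO and at 14.7, 15.98, 17.6 and 19.2 TPM in control, without overlap, and its change of 0.24 did not pass (95% interval 0.06 to 0.43, limma adjusted p = 0.107). Foxo1 had a change of 0.13 (95% interval -0.01 to 0.27) and Ppargc1a, which encodes PGC-1alpha, of -0.13 (95% interval -0.26 to 0.00), neither past the threshold (limma adjusted p = 0.241 and 0.223). Of 28 listed target genes of these factors 27 were tested and 0 passed in limma, with 7 at an unadjusted p under 0.05 (23.7% over all tested genes), and their median of -0.02 equalled that of all tested genes. Their median turned to between 0.01 and 0.02 under the 3 other scalings. There was 1 call, higher in cKO, after quantile normalization, and 1 call without cKO replicate 4.

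Among 14 substrates of Sirt2, 13 were tested, 4 fell and 0 rose, where 4.23% of all tested genes fell, and under each of 3 other scalings 2 of the 13 fell. Bub1b, the spindle checkpoint kinase, stood at 57.2, 63.3, 51.6 and 59.2 TPM in cKO and at 82.8, 78.7, 79.7 and 78.2 TPM in control (change -0.46, limma adjusted p = 0.00361). Cdc20, an activator of the anaphase-promoting complex, fell from 106.5 ± 3.34 to 82.0 ± 6.20 TPM (SD, n = 4, change -0.38, limma adjusted p = 0.00777). Fzr1 (-0.26), which encodes the other activator Cdh1, and Kmt5a (-0.27), the histone H4 lysine methyltransferase, fell with limma adjusted p of 0.0476 and 0.0350. Cdc27, a core subunit of the anaphase-promoting complex, had a change of -0.10 that did not pass (limma adjusted p = 0.181). The other tested members did not pass either, from Ldha (-0.24, limma adjusted p = 0.0756) to G6pdx (-0.02, limma adjusted p = 0.877). The calls thus include the spindle checkpoint kinase and both activators of the anaphase-promoting complex, and whether they relate to Sirt2 was not tested. The median of the 13 was -0.19 and all 13 lay below 0, or 12 of 13 under each of those scalings, with medians of -0.16 to -0.13. Of all 15541 tested genes, 8678 lay below 0 in the values as deposited. Bub1b and Cdc20 kept their calls under all 17 settings, while Kmt5a and Fzr1 lost theirs under 12 and 13.

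Partners and substrates of Sirt6 and Sirt7 were a list of 20, all of them tested, with 3 lower, 1 higher and a median of -0.11, where 4.23% of all tested genes were called lower and 2.16% higher. After quantile normalization 0 were called lower and 1 higher with a median of -0.05. Under median-ratio scaling and rescaling 1 was called lower and 1 higher, with medians of -0.08 and -0.07. Ubtf, the RNA polymerase I transcription factor, fell from 78.9 ± 3.75 to 67.8 ± 2.81 TPM (SD, n = 4, change -0.21, limma adjusted p = 0.0362). Trim28, a corepressor (-0.22), and Smarca5, a chromatin remodeller (-0.32), fell with limma adjusted p of 0.0310 and 0.0382. Polr1e, an RNA polymerase I subunit also known as PAF53 and a Sirt7 substrate, rose from 12.7 ± 0.489 to 15.4 ± 1.00 TPM (SD, n = 4, change 0.25, limma adjusted p = 0.0398). The calls were lost under 9 settings for Trim28, 10 for Polr1e and 13 each for Ubtf and Smarca5, out of 17.

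Of 31 substrates of the mitochondrial sirtuins, 29 were tested, 2 fell and 0 rose, where 4.23% of all tested genes fell. The median was -0.07 with 7 of 29 above 0, and -0.01 with 13 of 29 above 0 after quantile normalization. With 10 of 29 above 0 in each, it was -0.04 under median-ratio scaling and -0.03 under rescaling without mitochondrial and globin genes. Of all 15541 tested genes, 6863 lay above 0 in the values as deposited. Ppif, which encodes cyclophilin D of the permeability transition pore, stood at 115, 119.9, 114 and 131 TPM in cKO and at 143, 149, 136 and 152 TPM in control (change -0.27, limma adjusted p = 0.0241). Lonp1, the matrix protease, fell from 105.4 ± 6.12 to 88.97 ± 5.62 TPM (SD, n = 4, change -0.24, limma adjusted p = 0.0419). These calls were lost under 7 and 12 of 17 settings. Ppif overlaps its antisense gene Ppifos (mean 9.04 TPM), so part of its reads cannot be placed if counting ignored strand.

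**Figure D5:**
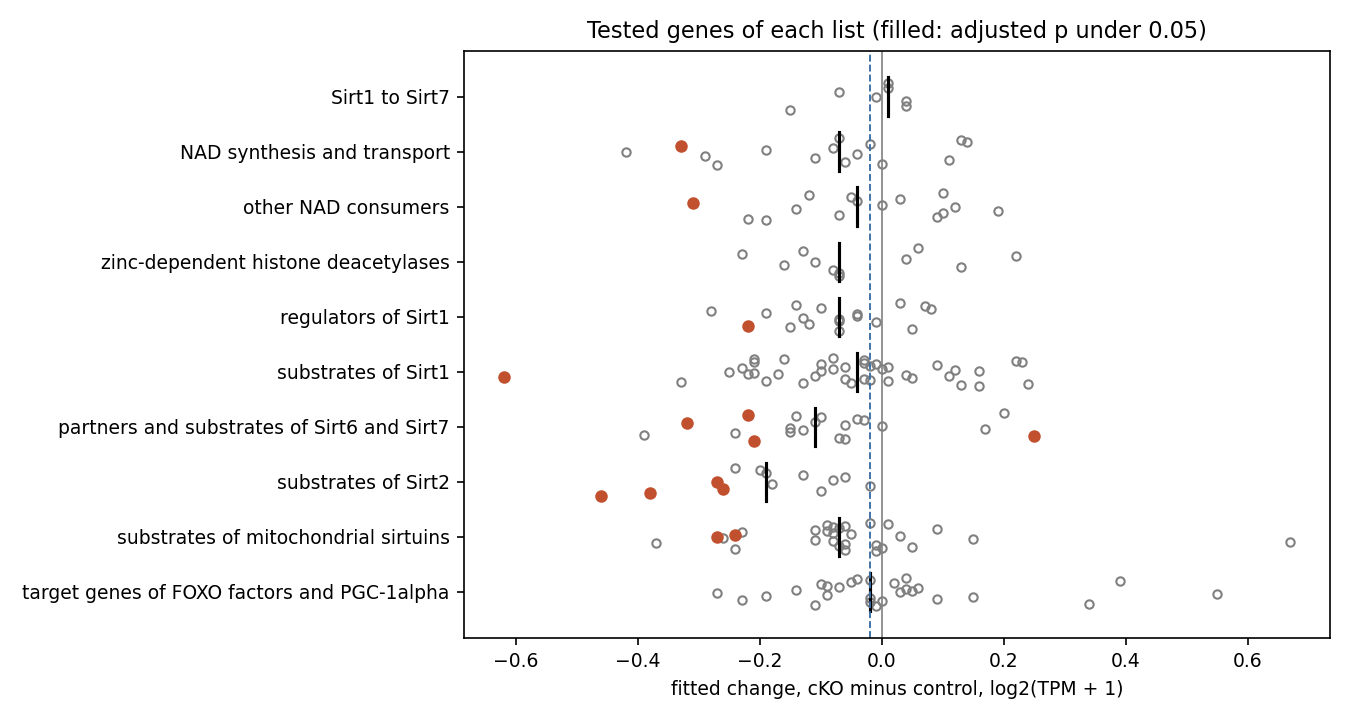
Fitted change of every tested gene, cKO minus control, on the log2(TPM + 1) scale (horizontal axis), by list, with filled points for an adjusted p under 0.05, black bars for list medians and a dashed line for the median of all tested genes (-0.02). E2f1 at -0.62 and Bub1b at -0.46 are the lowest points among these calls, and Polr1e at 0.25 is the 1 called gene above 0.

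Of the 994 calls over all tested genes, 658 (4.23% of those tested) were lower and 336 (2.16%) higher in cKO. The higher calls made up 33.8% of calls in the values as deposited, 50.3% after quantile normalization, 47.8% after median-ratio scaling and 49.5% when mitochondrial and globin genes were removed before rescaling.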

How the data were processed

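Transcript levels were read from 1 table in TPM, computed by the authors, with 1 column per library and column sums between 999999 and 1000000. Per the submitters' processing notes the build was GRCm38 and the tools named were FastQC, Trim Galore 0.6.7, HISAT2 2.2.1, StringTie 2.2.1, featureCounts and DESeq2, without roles. The annotation is not given in the sources used here, and TPM keeps no depth, so no counting error could be given. Of 49630 rows found in the RefSeq table of GRCm38.p6, 49629 had the same coordinates. Groups came from the sample titles.

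Values were analysed as log2(TPM + 1) of the deposited TPM with limma 3.58.1 in R 4.3.3 (group as the only term, eBayes with trend, two-sided). Rows with a mean of at least 1 TPM were tested, and p-values were adjusted by Benjamini-Hochberg over 15541 rows. Fold changes on this scale understate those of low genes. The exact permutation test used 70 assignments. Members and lists were chosen with earlier results of these data known. Named genes were the 8 members, Rps19, the tested neighbours of Rps19bp1, Ccar2, Hic1, Nampt, Parp1, Trp53, Foxo1, Foxo3 and Ppargc1a, up to 6 called genes per list (by p), the most abundant marker of each cell type and the 3 genes most correlated with Rps19bp1 or Sirt1. Alternatives were other pseudocounts, filters, scalings, no trend, a replicate block and leaving out each library. The fit was tested on simulated data. Nkx2-5, Nefl and Cdc27 were chosen after their values were seen. Figures were drawn with matplotlib 3.10.9.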

Additional observations from a re-analysis of the deposited data

Results flagged for a closer look

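In 68 groups of 4 values, a library far from the other 3 was found in 3. The rule marks 1 in 20 of independent groups, but these groups share the same 8 libraries and many of their genes were named for their calls. The count can therefore not be weighed against that rate. Sirt7 stood at 19.4 TPM in cKO replicate 1, against 15.9 to 16.2 TPM in the other cKO libraries. Foxo3 stood at 21.98 TPM in cKO replicate 2, against 19.3 to 19.7 TPM in the others. Fzr1 stood at 97.9 TPM in control replicate 4, against 90.6 to 91.5 TPM in the other controls.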

How the results depend on the processing

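Rps19bp1 stayed called under all 17 alternatives (log2 change -1.49 to -1.18, limma adjusted p 0.000155 to 0.0108). Sirt1 stayed lower and uncalled (-0.17 to -0.12, adjusted p 0.113 to 0.278), and 0 sirtuins were called under any. Signs near 0 turned. Sirt4 was 0.01 after median-ratio scaling and 0.02 rescaled without mitochondrial and globin genes. Leaving out single libraries gave -0.03 to 0.09 for Sirt3, -0.07 to 0.04 for Sirt4, -0.03 to 0.06 for Sirt6, -0.06 to 0.05 for Sirt7 and -0.06 to 0.22 for Hic1.

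Genes past the threshold numbered 994 (336 higher, 658 lower). There were 347 without a filter (140 higher, 207 lower) and 609 without the trend (371 lower). Lower calls were 380 after quantile normalization, 419 after median-ratio scaling and 396 rescaled. Leaving out libraries gave 388 to 936 in all, 153 to 339 higher and 228 to 597 lower, and every omission but that of cKO replicate 2 or 4 moved the total by over 1.5 times. The replicate block gave 420 (179 higher, 241 lower), but same-numbered libraries did not deviate together (correlations -0.089 to 0.067) and only numbers 2 and 3 correlated best with their own. The causes were not tested, and a fit without 1 library also rests on fewer samples. Depth is unknown.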
